A study of Homo sapiens with 15 samples.

Results

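The IL-6 family is a group of secreted cytokines that all signal through gp130, a shared receptor subunit encoded by IL6ST. 10 of its genes, taken by name, were followed: the ligands IL6, IL11, LIF and CLCF1, the receptors IL6R, IL6ST, LIFR and OSMR, the transcription factor STAT3 and its inhibitor SOCS3. These are 10 of 59428 genes in the table of IMR90 cells and 10 of 59412 genes in the table of Huh7 cells, and all 10 passed the filter on low counts in both. In the IMR90 control IL6, IL11 and LIF were among the 150 most abundant transcripts per kilobase. In the libraries labelled set 2 IL6 was 12.1-fold and IL11 8.28-fold lower than in the control, while IL6R and LIFR were higher. In those labelled set 1 IL6 was 1.69-fold lower but IL11 1.34-fold higher, and IL6R and LIFR were also higher. The Huh7 libraries held little IL6, IL11 or LIF, and there the receptors IL6R, IL6ST and OSMR and the inhibitor SOCS3 were lower with shTHBD.

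The study set out to deplete THBD (thrombomodulin, a membrane receptor for thrombin) by short hairpin RNA in senescent human cell lines and measured bulk RNA. IMR90, a lung fibroblast line, was labelled as made senescent by HRAS G12V, an active mutant of the RAS oncogene. It gave 3 libraries with a non-targeting hairpin (control) and 2 sets of 3 libraries titled shTHBD, called set 1 and set 2 here from the number in the title, whose meaning the labels do not give. Huh7, a line from a liver carcinoma, was labelled as made senescent by palbociclib, an inhibitor of cell cycle kinases, and gave 3 libraries with a non-targeting control and 3 with shTHBD. All 15 libraries thus came from cells called senescent, and each kind of cell is represented by a single line. The growth notes also describe replicative senescence of IMR90 by long passage, but no library is labelled so. No label states whether the 3 libraries of a group were grown apart, so every p-value reflects the spread among these libraries alone, which may be technical. For 1 set 2 library (replicate 3) the description names Huh7 while its other labels name IMR-90.

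The targeted gene did not follow the label in set 1. In CPM (the gene's count scaled to the library's total count), control libraries held THBD at 16.5, 18.8 and 20.0, the libraries labelled set 1 at 39.4, 36.6 and 37.3, and set 2 at 10.5, 11.5 and 11.4. It was 2.12-fold higher in set 1 and 1.76-fold lower in set 2 than in the control (log2 fold changes 1.09 and −0.81, edgeR adjusted p = 1.2e-20 and 1.5e-12). Every direction given for set 1 is that of the libraries labelled so, not of THBD depletion. In Huh7 THBD had 0, 0 and 6 counts in the control and 0 in each shTHBD library, where a count of 0 allows up to 3 counts, so the label could not be checked there. Total counts ran from 18256773 to 21509229 in IMR90, from 19328182 to 20020683 in the non-targeting Huh7 libraries and from 22479132 to 25236178 in Huh7 with shTHBD. Fibroblast markers (10 of 10 at 1 CPM or more in every IMR90 group) summed to 16710 to 16844 CPM in the control, 11429 to 11595 in set 1 and 22626 to 22993 in set 2. Of these 10 markers 2 were higher and 7 lower in set 1, and 6 were higher and 4 lower in set 2, so they did not share a direction and FN1 alone held 10384, 6792 and 10231 CPM of the sum. Leukocyte markers summed to 4.09 to 4.61 CPM in the control, 12 to 13.4 in set 1 and 1.20 to 1.96 in set 2, with CD3E at 0. Endothelial markers summed to 166 to 174, 345 to 348 and 104 to 112 CPM in the same order, mostly TIE1. Hepatocyte markers summed to 15.9 to 17.9, 132 to 142 and 11.5 to 13.2 CPM, mostly SERPINA1, with APOB, TTR, AHSG and FGB at 0. Mitochondrial transcripts took 5.43 to 5.48% of counts in the control, 5.82 to 5.98% in set 1 and 6.38 to 6.58% in set 2. The part of these differences in the results was not tested, and in bulk RNA fewer cells expressing a gene and less RNA per cell cannot be told apart.

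As background, IL-6 and IL-11 each bind a private receptor, IL6R or IL11RA, and then pair gp130 molecules, while LIF joins gp130 with LIFR, and oncostatin M joins it with OSMR or LIFR. CLCF1 acts through CNTFR, gp130 and LIFR. The paired receptors activate JAK kinases that phosphorylate STAT3, and STAT3 induces SOCS3, which binds gp130 and shuts the signal down. IL-6 is a well known member of the senescence-associated secretory phenotype, and in hepatocytes the same pathway drives the acute phase response. The proteases ADAM10 and ADAM17 can cut IL6R from the cell surface, and the soluble form carries IL-6 to cells that lack the receptor.

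Start-site sequences are shown for IL6 and IL11, the members with the largest falls in set 2, and for LIFR, a receptor that rose. They come from RefSeq (GRCh38.p14), which gave windows of 300 bases for 8 of the 10 genes. Each printed run starts 250 bases before the transcript start and ends before the first annotated exon base. Capitals mark matches, on either strand, to letters bound by factors of this pathway: GGG, any 2 bases and TTTCC for NF-kB, TTGCNNAA for C/EBP, TGANTCA for AP-1 and TTCNNNGAA for STAT.
IL6, chr7:22726950-22727146, plus strand: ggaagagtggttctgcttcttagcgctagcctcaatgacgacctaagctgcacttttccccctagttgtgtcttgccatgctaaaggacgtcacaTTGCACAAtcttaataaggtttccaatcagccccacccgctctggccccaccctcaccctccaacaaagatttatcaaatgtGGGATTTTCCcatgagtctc
IL11, chr19:55370464-55370713, minus strand: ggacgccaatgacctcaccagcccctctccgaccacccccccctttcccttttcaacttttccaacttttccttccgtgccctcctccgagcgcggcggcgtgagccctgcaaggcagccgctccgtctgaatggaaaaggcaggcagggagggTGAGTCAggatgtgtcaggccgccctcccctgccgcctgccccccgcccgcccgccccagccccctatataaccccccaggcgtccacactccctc
LIFR, chr5:38595406-38595655, minus strand: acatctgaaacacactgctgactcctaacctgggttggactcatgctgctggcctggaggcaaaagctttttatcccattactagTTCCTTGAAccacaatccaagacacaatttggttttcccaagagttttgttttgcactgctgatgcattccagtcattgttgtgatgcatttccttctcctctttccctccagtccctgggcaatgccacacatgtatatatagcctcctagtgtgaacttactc
Counted back from the base before the start, the IL6 run holds a C/EBP match at −155 to −148 and an NF-kB match at −73 to −64. The IL11 run holds an AP-1 match at −96 to −90, and the LIFR run a STAT match at −165 to −157. The letters for NF-kB occur in 1.91% of all 35116 windows of this length, those for AP-1 in 7.71%, for STAT in 7.66% and for C/EBP in 10.5%. The 8 genes have 11 windows between them, since LIFR has 3 and SOCS3 has 2, so a gene with several windows has more chances of a match than the share per window. NF-kB letters were found in 1 gene (IL6), STAT letters in 1 (LIFR, in the printed window and in a second one), C/EBP letters in 3 (IL6, OSMR and the second window of LIFR) and AP-1 letters in 3 (IL11, IL6R, OSMR). A match is a description of the letters and not a measured binding site. The printed receptor and window were a choice. IL6R rose more in set 2 than LIFR (2.43-fold against 1.87-fold). Its run before the first exon base has 100 bases and no match, since its AP-1 letters lie past the start at 38 to 44. The third LIFR window holds no match. In GENCODE 38 the gene IL6 spans chr7:22725884-22732002 and LIFR spans chr5:38474668-38608354, so their printed runs lie inside the gene between annotated exons, and IL11 spans chr19:55364382-55370463, so its run lies just upstream.

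In the IMR90 control IL11, LIF and IL6 stood above all 4 receptors per kilobase, and CLCF1 stood below IL6ST and OSMR. In CPM IL6ST (608) stood above IL6 (416). Levels of different genes were compared per kilobase of exon (RPKM), over all annotated exon bases of a gene. The order of genes depends on these lengths: STAT3 has 11208 such bases for IMR90 and 8812 for Huh7. In RPKM IL11 was at 299 ± 2.15 (SD, n = 3), LIF at 288 ± 2.24 and IL6 at 201 ± 1.96. They were 84th, 88th and 150th of the 13102 genes with at least 1 CPM. IL6ST followed at 60.1 ± 1.87 RPKM. OSMR (34.2 ± 0.255) and SOCS3 (34.1 ± 0.210) did not differ beyond their spread, and STAT3 stood at 12.4 ± 0.0810 and CLCF1 at 9.97 ± 0.875. LIFR, at 1.91 ± 0.129, and the IL-6 receptor itself, IL6R, at 1.17 ± 0.0437, were the lowest. The control fibroblasts thus held abundant transcripts of 3 ligands and of gp130 and few of IL6R.

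All 10 genes differed from the control in both sets of IMR90 libraries, in a setting where most genes did: 53.8% of the 15411 genes tested were called in set 1 and 67.3% in set 2 (edgeR's quasi-likelihood test, Benjamini-Hochberg adjusted p under 0.05). In set 1, 8 were higher (27.3% of all genes were) and 2 lower (26.5%), with a median log2 fold change of 0.45 against −0.00 over all genes. In set 2, 3 were higher (33.2% of all genes) and 7 lower (34.1%), with a median of −0.51 against 0.01. Both comparisons share the control libraries.

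**Figure D1:**
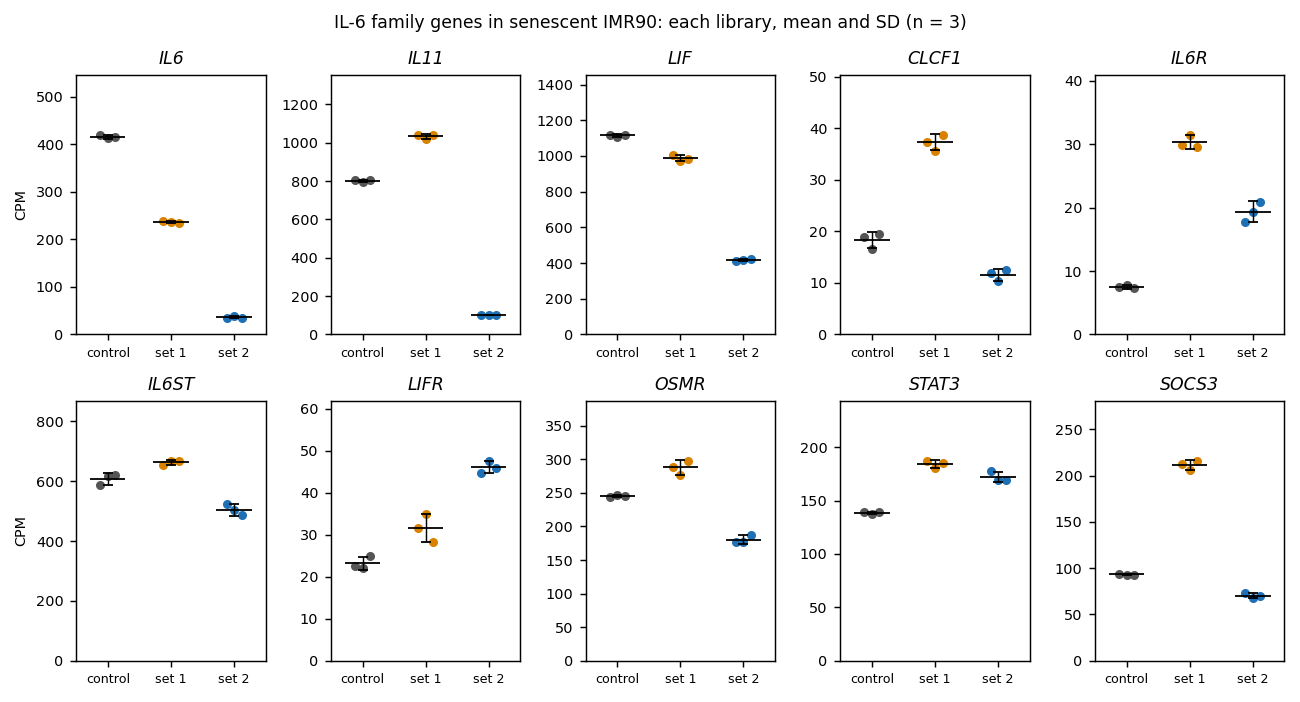
Level of each of the 10 genes in CPM (y axis, linear, from 0) in every IMR90 library of the control, set 1 and set 2; points are libraries, bars the mean and SD of 3. IL6, IL11 and LIF are lowest in set 2, and LIFR is highest there.

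IL6, the ligand that names the family, was at 420, 413 and 415 CPM in the control, at 239, 237 and 235 in set 1 and at 34.7, 38.9 and 35.6 in set 2. Its level was lower in set 1 than in the control and lowest in set 2, and no library lay between the groups. The fall was 1.69-fold in set 1 (log2 fold change −0.76 ± 0.0283 SE, adjusted p = 9.3e-36) and 12.1-fold in set 2 (−3.60 ± 0.0360, adjusted p = 2.1e-72), the 41st largest fall of 15411 genes. Between the sets, IL6 was 7.16-fold lower in set 2 (−2.84, adjusted p = 5.4e-65). Of the exon bases of IL6, 20.7% are shared with the antisense gene IL6-AS1. Counting used no strand, and IL6-AS1 itself was at 0.541, 0.428 and 0.337 CPM on average in the 3 groups. How the shared bases bear on the IL6 count was not tested, and the IL6-AS1 count cannot show it.

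IL11, a profibrotic relative of IL-6, went in opposite directions in the sets. It stood at 806, 795 and 803 CPM in the control, at 1043, 1020 and 1042 in set 1 and at 102, 102 and 104 in set 2. Set 1 libraries were the highest and set 2 libraries the lowest. IL11 rose 1.34-fold in set 1 (0.42 ± 0.0214, adjusted p = 3.2e-28) and fell 8.28-fold in set 2 (−3.05 ± 0.0257, adjusted p = 4.9e-77), and the sets differed 11.1-fold.

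LIF, which keeps mouse embryonic stem cells undifferentiated in culture, acts through gp130 and LIFR. LIF was at 1120, 1105 and 1119 CPM in control libraries, 1006, 972 and 985 in those of set 1 and 410, 417 and 420 in those of set 2. Its change in set 1 was small, 1.09-fold lower (−0.12 ± 0.0207, adjusted p = 9.7e-07). In set 2 LIF fell 2.84-fold (−1.51 ± 0.0217, adjusted p = 3.8e-62) and remained at 107 RPKM, the highest of the 4 ligands there.

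CLCF1, the least abundant of the 4 ligands in the control, was highest in set 1 and lowest in set 2. Control libraries had 18.9, 16.5 and 19.5 CPM of CLCF1, set 1 libraries 37.4, 35.7 and 38.8, and set 2 libraries 11.9, 10.3 and 12.5. CLCF1 was 2.11-fold higher in set 1 (1.08 ± 0.0775, adjusted p = 3.6e-20) and 1.68-fold lower in set 2 (−0.75 ± 0.0911, adjusted p = 3.5e-11).

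The make-up of the ligand pool differed from the control in both sets, and its size was much smaller in set 2. Summed over the 4 ligands, the control held 798 ± 6.80 RPKM, set 1 held 776 ± 10.0 and set 2 held 170 ± 2.11. In the control IL11 made up 37.5% of this sum, LIF 36.1%, IL6 25.2% and CLCF1 1.25%. In set 1 the IL11 share was 49.8% and the IL6 share 14.7%. In set 2 LIF made up 63.3%, IL11 22.6%, IL6 10.4% and CLCF1 3.72%, so LIF was the main remaining ligand transcript. These shares follow from the levels above and were not tested separately.

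**Figure D2:**
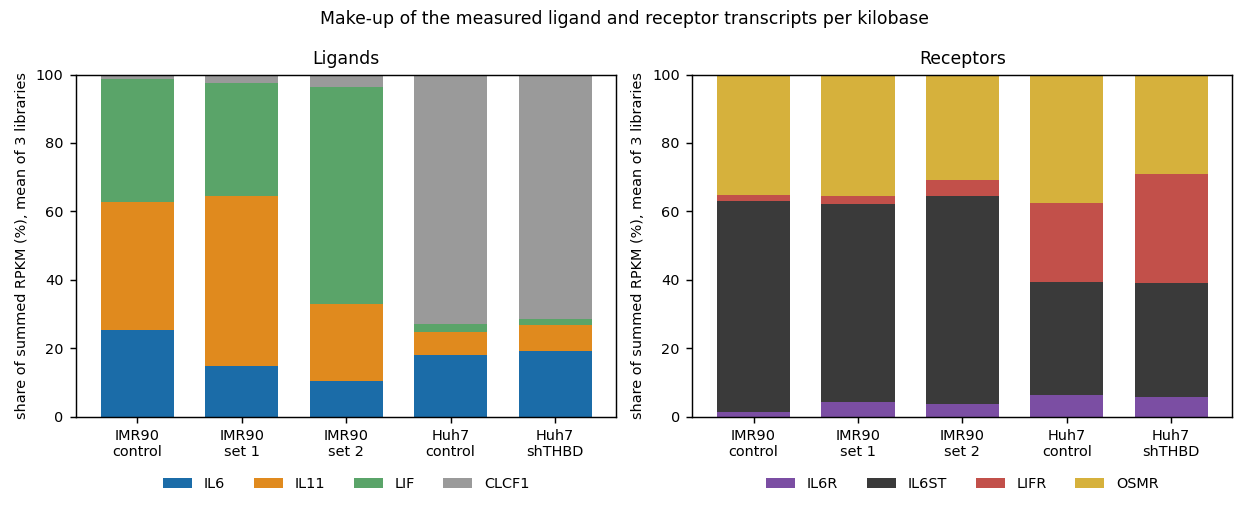
Share of each gene in the summed RPKM (y axis, %) of the 4 ligands (left) and the 4 receptors (right) in the 5 groups, as the mean of 3 libraries. LIF takes 63.3% of the ligand sum in IMR90 set 2, and CLCF1 takes 73.0% in the Huh7 control.

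The 4 receptors did not share a direction in set 2, where IL6R and LIFR rose and IL6ST and OSMR fell. IL6R, which binds IL-6, had 7.49, 7.81 and 7.25 CPM in control libraries, 29.9, 31.5 and 29.6 in those of set 1 and 17.7, 19.3 and 21.0 in those of set 2. Both sets lay above the control, with set 1 the highest. IL6R rose 4.20-fold in set 1 (2.07 ± 0.0918, adjusted p = 2.3e-31), the 126th largest rise of all genes, and 2.43-fold in set 2 (1.28 ± 0.0974, adjusted p = 2e-19). Even then it was among the less abundant receptors, at 4.70 ± 0.161 RPKM in set 1 and 3.0 ± 0.253 in set 2.

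LIFR, the second chain of the LIF receptor, was at 22.5, 22.1 and 25 CPM in control libraries, 31.6, 34.9 and 28.4 in those of set 1 and 44.7, 47.6 and 46.0 in those of set 2. It was the only one of the 10 genes that was higher in set 2 than in set 1. LIFR rose 1.41-fold in set 1 (0.50 ± 0.0718, adjusted p = 1e-08) and 1.87-fold in set 2 (0.91 ± 0.0691, adjusted p = 2.2e-19). The difference between the sets was 0.40 on the log2 scale (adjusted p = 1.6e-07).

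IL6ST, the gp130 chain itself, stayed within a narrow range. Control libraries had 586, 617 and 620 CPM, set 1 had 655, 667 and 668, and set 2 had 525, 503 and 486. It was 1.13-fold higher in set 1 (0.18 ± 0.0240, adjusted p = 9.3e-10) and 1.28-fold lower in set 2 (−0.35 ± 0.0243, adjusted p = 1.9e-21).

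OSMR, the oncostatin M receptor chain, followed the same order. The control libraries read 243, 247 and 245 CPM, those of set 1 read 289, 277 and 298, and those of set 2 read 177, 177 and 188. It rose 1.22-fold in set 1 (0.29 ± 0.0294, adjusted p = 1.9e-13) and fell 1.44-fold in set 2 (−0.53 ± 0.0306, adjusted p = 2.1e-25). IL6ST and OSMR together made up most of the receptor sum in each IMR90 group, with IL6ST at 61.7, 58.0 and 61.0% and OSMR at 35.1, 35.5 and 30.7% in control, set 1 and set 2.

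STAT3, the transcription factor activated by gp130, was higher in both sets. It stood at 139, 137 and 139 CPM in control libraries, 187, 180 and 185 in those of set 1, and 177, 170 and 169 in those of set 2. The rise was 1.38-fold in set 1 (0.47 ± 0.0325, adjusted p = 6.6e-21) and 1.17-fold in set 2 (0.23 ± 0.0327, adjusted p = 4.4e-09).

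SOCS3, the feedback inhibitor that STAT3 induces, moved with STAT3 in set 1 but not in set 2. It was at 93.9, 93.0 and 92.8 CPM in control libraries, 212, 206 and 216 in those of set 1, and 73.0, 68.0 and 70.2 in those of set 2. SOCS3 rose 2.35-fold in set 1 (1.24 ± 0.0354, adjusted p = 1.2e-42) and fell 1.40-fold in set 2 (−0.49 ± 0.0396, adjusted p = 3.8e-18). In set 2 STAT3 and SOCS3 therefore moved in opposite directions. The counts measure transcripts and say nothing of STAT3 phosphorylation.

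Set against each other directly, set 2 was lower than set 1 in 9 of the 10 genes and higher in LIFR, and all 10 were called (69.5% of all genes were). Among all genes 33.9% were lower in set 2 and 35.6% higher. The largest differences were those of IL11 (−3.47), IL6 (−2.84), CLCF1 (−1.83) and SOCS3 (−1.72), and the smallest was that of STAT3 (−0.24). The median over the 10 genes was −1.10 against 0.03 over all genes. Upper-quartile scaling moved the median of all genes in this comparison to 0.13 without ending any of these calls.

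**Figure D3:**
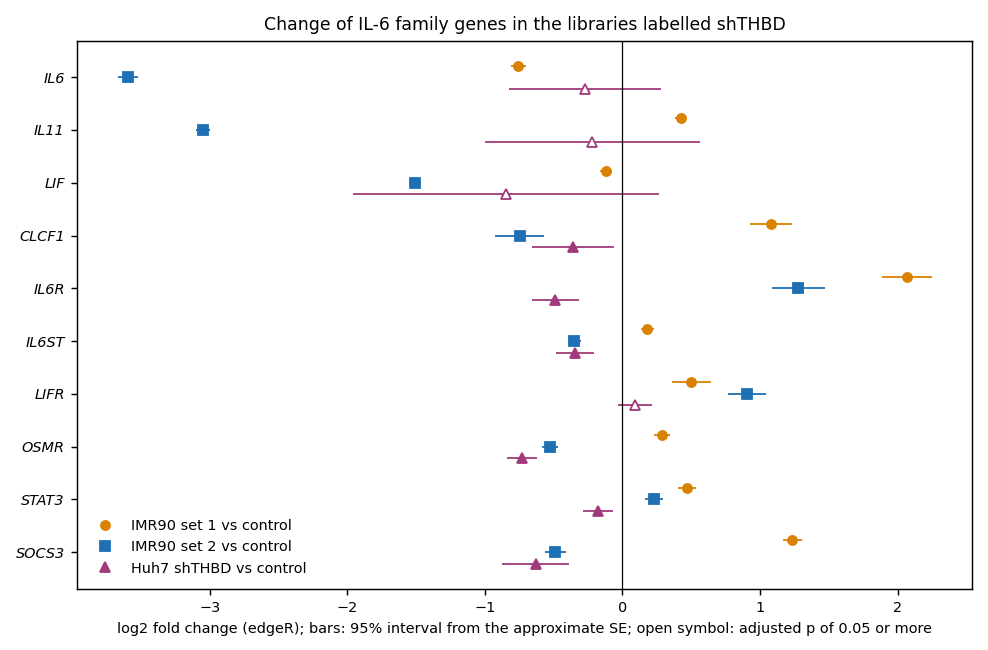
Log2 fold change (x axis) of the 10 genes against the control of the same line; bars are 95% intervals from the approximate standard error, and open symbols have an adjusted p of 0.05 or more. In set 2 IL6 (−3.60) and IL11 (−3.05) lie farthest from 0, and in Huh7 the symbols of IL6, IL11, LIF and LIFR are open.

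The genes whose pattern over the 9 IMR90 libraries was most like each ligand were found by the root mean square difference of log2(CPM + 0.5), each gene centred on its control mean, among 9338 genes. Nearest to IL6 were CSF2, a growth factor of myeloid cells (difference 0.179), and the neutrophil chemokines CXCL5 (0.185) and CXCL8 (0.213). Mean CPM of CSF2 was 116 (control), 76.6 (set 1) and 11.6 (set 2), and that of CXCL5 was 2374, 1629 and 236. Nearest to IL11 were BDKRB2, a bradykinin receptor (0.166), IL36RN, an antagonist of IL-36 (0.169), and BMP2, a bone morphogenetic protein (0.175). BMP2 was at 58.6, 89.3 and 8.03 CPM in the 3 groups. IL36RN was at 9.14, 10.8 and 0.746 CPM, so only its set 1 mean reached the 10 CPM asked of a compared gene. Its set 2 mean lay near the added 0.5, which narrows its distance from IL11. By edgeR IL36RN changed by −3.69 in set 2 and IL11 by −3.05. LIF had the closest neighbours, DENND5A (0.0401), PRXL2B (0.0496) and AGPS (0.0550), none of them a cytokine. DENND5A was at 147, 127 and 55.2 CPM. Nearest to CLCF1 were SLC29A1, a nucleoside transporter (0.0948), TIE1, an endothelial receptor kinase (0.0959), and LOX, a collagen cross-linking enzyme (0.102). TIE1 was at 162, 342 and 101 CPM. These likenesses are descriptions over the same 9 libraries, and the groups set most of them.

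The genes around the family were taken as 9 lists. CEBPB and CEBPD stand both among the inducers of IL6 and among the STAT3 targets, so the counts of those lists share genes. Their counts stand beside 27.3% higher and 26.5% lower among all genes in set 1 and 33.2% higher and 34.1% lower in set 2, with medians over all genes of −0.00 and 0.01. Among 13 inducers of IL6 transcription (12 tested), 9 were lower and 2 higher in set 2 with a median of −0.53, whereas 3 were lower and 8 higher in set 1 with a median of 0.16. IL1B and IL1A are interleukin-1 cytokines that switch on IL6 through NF-kB. Control, set 1 and set 2 had means of 4904, 7276 and 916 CPM for IL1B and of 461, 481 and 76.3 CPM for IL1A. IL1A fell by 2.68 ± 0.0326 and IL1B by 2.50 ± 0.0166 on the log2 scale in set 2 (adjusted p = 6.5e-67 and 1.2e-83). In set 1 IL1B rose by 0.62 ± 0.0155 while IL6 fell by 0.76, so these genes moved in opposite directions there. NFKB1, a subunit of NF-kB, fell by 0.99 ± 0.0546 in set 2.

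Regulators of IL6 mRNA decay were higher in 5 and lower in 2 of 7 genes in set 2, and higher in 4 and lower in 1 in set 1. ZC3H12A, a nuclease that degrades IL6 mRNA, fell by 0.97 ± 0.0358 in set 2, and ARID5A, which protects that mRNA, fell by 0.87 ± 0.112. ZFP36L1, a protein that binds AU-rich elements and promotes decay, had means of 228, 347 and 448 CPM in control, set 1 and set 2 (log2 fold changes 0.66 and 0.89).

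Downstream, 10 of 16 genes known as STAT3 targets were lower in set 2 and 2 were higher, with a median of −0.25. In set 1, 6 were lower and 8 higher, with a median of 0.10. The cell cycle gene CCND1 had means of 1996, 1190 and 451 CPM in the 3 groups (log2 fold changes −0.69 ± 0.0191 and −2.23 ± 0.0204). VEGFA, an angiogenic factor, fell by 0.75 ± 0.0274 in set 1 and by 1.67 ± 0.0291 in set 2, and the interferon regulatory factor IRF1 fell by 1.41 ± 0.0898 in set 2. Targets of STAT3 also answer to other pathways, and no part of their change is assigned here.

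Among 9 further inhibitors of the pathway (8 tested), 4 were lower and 2 higher in set 2, and 2 were lower and 3 higher in set 1. SOCS1, a relative of SOCS3 that blocks JAK kinases, rose where SOCS3 fell: it was at 10.1 CPM in the control, 19.3 in set 1 and 27.7 in set 2 (log2 fold changes 1.0 ± 0.102 and 1.38 ± 0.0981). PIAS1, an inhibitor of STAT proteins, fell by 0.62 ± 0.0759 in set 2, and the phosphatase PTPN1 fell by 0.28 ± 0.0371. Of 8 JAK kinases and other transducers, 3 were higher and 3 lower in set 2, and 2 were higher and 3 lower in set 1. The kinase TYK2 fell by 1.04 ± 0.0419 and the phosphatase PTPN11 by 0.86 ± 0.0281 in set 2, while STAT5B rose by 0.76 ± 0.0570. The kinases JAK1 and JAK2 also rose in set 2, by 0.23 ± 0.0294 and 0.35 ± 0.0968.

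Of 4 other receptors (3 tested), IL11RA, the private receptor of IL-11, rose by 1.03 ± 0.119 in set 2, from 6.85 to 14.9 CPM, where IL11 itself fell. In set 1 its log2 fold change was −0.14 ± 0.134 (adjusted p = 0.4). IL27RA, the IL-27 receptor chain that pairs with gp130, rose by 1.11 ± 0.0707 in set 1 and fell by 0.62 ± 0.0819 in set 2. Both proteases that shed IL6R were higher in set 2, ADAM10 by 0.45 ± 0.0300 and ADAM17 by 0.54 ± 0.0514. In set 1 ADAM17 rose by 0.45 ± 0.0521 and ADAM10 fell by 0.35 ± 0.0315. Of 7 other ligands of the family, 3 passed the filter and none reached 10 CPM, with 1 higher and 2 lower in each set. Of 12 acute phase genes, 3 passed the filter in IMR90, with 2 lower in set 1 and 1 higher and 2 lower in set 2.

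**Figure D4:**
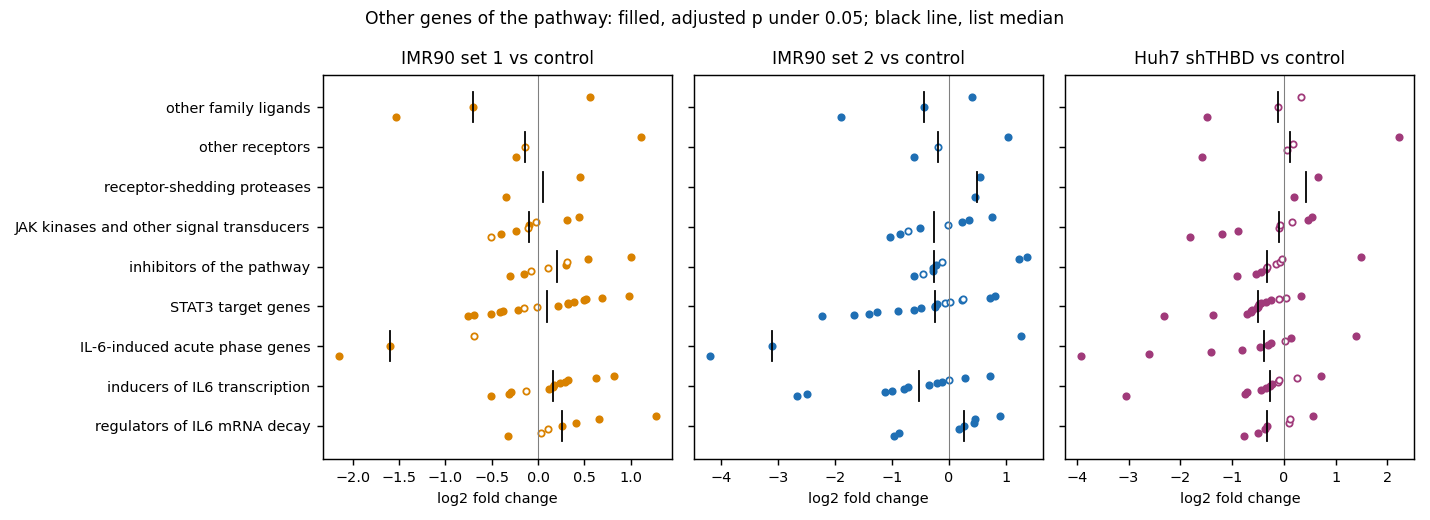
Log2 fold change (x axis) of every tested gene in the 9 lists (y axis) in IMR90 set 1, IMR90 set 2 and Huh7, each against its own control; filled points have an adjusted p under 0.05, and black lines are list medians. The median of the inducers of IL6 is 0.16 in set 1 and −0.53 in set 2.

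In Huh7 the family had another make-up. In the control IL6 stood at 3.05, 3.40 and 3.0 CPM, IL11 at 0.915, 1.90 and 2.02, and LIF at 0.305, 0.999 and 0.983, so that CLCF1 made up 73.0% of a ligand sum of 8.57 ± 0.999 RPKM. The receptors were abundant, with OSMR at 49.7 ± 1.49 RPKM, IL6ST at 43.8 ± 2.47, LIFR at 30.9 ± 1.67 and IL6R at 8.29 ± 0.863. STAT3 was at 33.9 ± 0.728 RPKM and SOCS3 at 6.91 ± 0.831, and SOCS3 and CLCF1 (6.25 ± 0.786) did not differ beyond their spread. The tables of the lines were made separately, so levels of the 2 lines are only set side by side and no test compared them. All 10 hepatocyte markers were at 1 CPM or more in Huh7. They summed to 7102 to 7350 CPM in the control and 4955 to 5139 in shTHBD (1 higher and 9 lower), and the part of this in the results below was not tested.

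With shTHBD, 6 of the 10 genes were lower in Huh7, none was higher and 4 were not called, while of the 17474 genes tested 53.1% were called, 27.3% lower and 25.9% higher. The median log2 fold change was −0.35 against 0.00 over all genes. The 4 genes not called were IL6, IL11, LIF and LIFR.

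**Figure D5:**
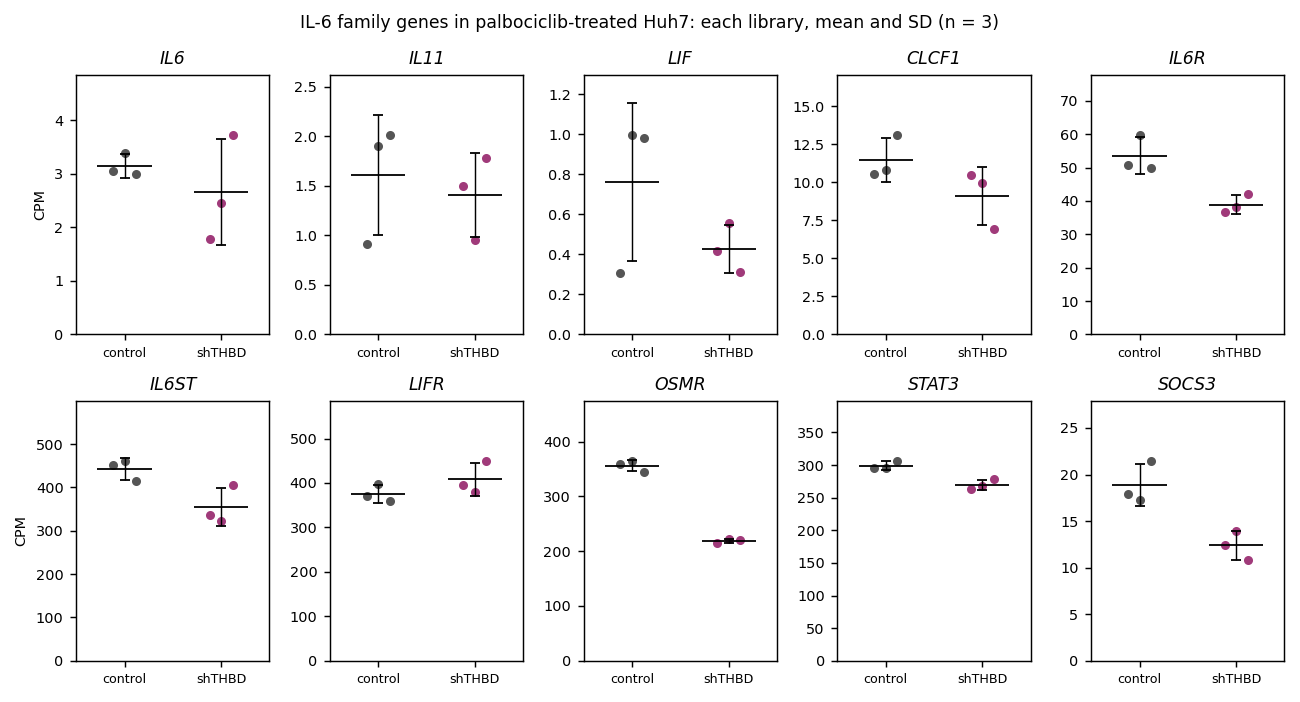
Level of each of the 10 genes in CPM (y axis, linear, from 0) in every Huh7 library of the control and shTHBD; points are libraries, bars the mean and SD of 3. OSMR and IL6R are lower with shTHBD in every library, and IL6 libraries overlap.

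OSMR had the largest change among the 6 called genes. It was at 360, 365 and 344 CPM in the control and 215, 222 and 221 with shTHBD, a gap far wider than the spread within either group. The fall was 1.66-fold (−0.73 ± 0.0557, adjusted p = 5.2e-13). RICTOR, whose exons on the opposite strand share 3.19% of the exon bases of OSMR, went from 74.1 to 161 CPM in the same libraries.

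IL6R fell from 50.9, 59.9 and 49.7 CPM to 36.6, 38.2 and 42.0, which was 1.40-fold (−0.49 ± 0.0878, adjusted p = 1.7e-05). IL6ST fell from 452, 461 and 414 to 337, 323 and 405, which was 1.27-fold (−0.34 ± 0.0700, adjusted p = 9.1e-05). The third shTHBD library of IL6ST lay close to the lowest control. LIFR stood at 370, 399 and 359 CPM in the control and 395, 379 and 450 with shTHBD, so that the groups overlapped (0.09 ± 0.0638, 95% interval −0.03 to 0.22, adjusted p = 0.24). As a result LIFR made up 23.3% of the receptor sum in the control and 31.9% with shTHBD, and OSMR 37.5% and 29.1%.

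SOCS3 stood at 17.9, 17.2 and 21.5 CPM in the control and 12.4, 14 and 10.9 with shTHBD, lower in all 3 libraries by 1.55-fold (−0.63 ± 0.124, adjusted p = 5.9e-05). STAT3 was at 295, 295 and 307 CPM against 263, 268 and 279, a small fall of 1.13-fold (−0.18 ± 0.0557, adjusted p = 0.0084). The STAT3 call was lost without shTHBD replicate 1 (adjusted p = 0.069), without shTHBD replicate 2 (0.054) and under upper-quartile scaling (0.06).

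Among the ligands, CLCF1 was at 10.5, 10.8 and 13.1 CPM in the control and 10.5, 9.95 and 6.94 with shTHBD, and the groups were separated by less than 0.1 CPM. Its fall (−0.36 ± 0.153, adjusted p = 0.047) was lost under 9 of 13 alternatives, with adjusted p from 0.027 to 0.22 over all of them. Those 9 include leaving out any control library (adjusted p = 0.054, 0.061 and 0.22) or shTHBD replicate 3 (0.21). IL6 had 60, 68 and 58 counts in the control and 43, 62 and 84 with shTHBD, and no change was detectable at this depth (−0.27, 95% interval −0.82 to 0.28, adjusted p = 0.44). The same held for IL11, with 18 to 39 counts in the control and 24 to 40 with shTHBD (−0.22, −1.0 to 0.56, adjusted p = 0.67). LIF had 6, 20 and 19 counts in the control and 10, 14 and 7 with shTHBD (−0.85, −1.96 to 0.27, adjusted p = 0.22).

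The lists in Huh7 stand beside 27.3% lower and 25.9% higher among all genes, with a median of 0.00. Of the 16 STAT3 targets, 13 were lower and 1 higher in Huh7, with a median of −0.49. CCND1 fell by 1.36 ± 0.0567, the kinase gene PIM1 by 0.63 ± 0.0732 and BCL3, a regulator of NF-kB, by 0.72 ± 0.0785. Of the acute phase genes 10 were tested, and 7 were lower and 2 higher with a median of −0.38. The serum amyloid genes SAA2 and SAA1 went from 46.1 and 50.7 CPM to 3.09 and 19.4 (−3.91 ± 0.161 and −1.41 ± 0.110), although these near-identical copies can share reads. FGA, the fibrinogen alpha chain, fell by 0.30 ± 0.0485. The 2 higher genes were FGB, the fibrinogen beta chain (0.15 ± 0.0484), and LBP (1.40 ± 0.417).

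Of the 8 transducers in Huh7, 3 were lower and 2 higher. The kinases TYK2 and JAK2 fell by 1.20 ± 0.0703 and 0.89 ± 0.134, while the kinase JAK1 rose by 0.55 ± 0.0562. Of 9 inhibitors, 4 were lower and 1 higher. SOCS2, which restrains growth hormone signalling, rose by 1.5 ± 0.0972, whereas PTPN1 fell by 0.91 ± 0.0707 and PIAS1 by 0.53 ± 0.0835. The inducers of IL6 were lower in 7 and higher in 1 of 11 tested genes, with RELB at −0.71 ± 0.114, NFKB1 at −0.76 ± 0.0819 and JUN, an AP-1 subunit, at 0.72 ± 0.0633. Of the 7 mRNA decay regulators, 4 were lower and 1 higher, with ZFP36 at −0.77 ± 0.0835 and RC3H1 at 0.57 ± 0.0902. IL27RA fell by 1.58 ± 0.0960, while ADAM17 rose by 0.66 ± 0.0917 and ADAM10 by 0.19 ± 0.0525.

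The effects in IMR90 set 2 and in Huh7 were compared in a joint fit of 16517 genes, of which 43.1% differed between the lines. Of the 10 genes 6 differed, with 4 more positive (21.2% of all genes) and 2 more negative (22% of all genes) in IMR90. IL6 and IL11 had the more negative effect in set 2, with differences of −3.33 ± 0.200 and −2.83 ± 0.240 on the log2 scale (adjusted p = 4.3e-15 and 1.7e-11), beside Huh7 levels of only a few CPM. The Huh7 effects alone had larger errors (0.281 for IL6 and 0.398 for IL11). The joint fit shares its estimate of spread between the lines, so its errors and p-values for IL6 and IL11 are likely too small. IL6R rose in set 2 and fell in Huh7, a difference of 1.75 ± 0.141 (adjusted p = 5e-12). STAT3 likewise rose in one and fell in the other (0.39 ± 0.0635, adjusted p = 7.1e-06). LIFR rose in set 2 while its Huh7 change was not called (difference 0.79 ± 0.0959, adjusted p = 3e-08). OSMR fell in both and by more in Huh7 (0.18 ± 0.0625, adjusted p = 0.017), although that difference was lost without set 2 replicate 3 (adjusted p = 0.06).

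For gp130 itself no difference was detected: IL6ST was lower in both, and the effects differed by −0.03 with a 95% interval from −0.20 to 0.14 (adjusted p = 0.88). SOCS3 was also lower in both, with a difference of 0.12 (−0.10 to 0.34, adjusted p = 0.42). For LIF (−0.69, −1.35 to −0.03, adjusted p = 0.1) and CLCF1 (−0.41, −0.78 to −0.04, adjusted p = 0.082) the adjusted test did not call a difference. The joint errors of LIF (0.337) and SOCS3 (0.113) were smaller than those of their Huh7 effects alone (0.569 and 0.124). The intervals given for these genes are therefore likely too narrow. LIF was called without Huh7 control replicate 2 (adjusted p = 0.044), and CLCF1 without Huh7 control replicate 3 (0.04) and without Huh7 shTHBD replicate 3 (0.0076). That last library also stood apart from its replicates. Its counts differed from theirs with a chi-square of 9.95 and 12.5 per degree of freedom, against 3.56 to 5.23 for the other Huh7 pairs, and mitochondrial transcripts took 9.94% of its counts against 7.83 and 8.04% in the other shTHBD libraries. The lines also differ in tissue and in how senescence was induced, and these cannot be told apart from the line.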

How the data were processed

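Bulk RNA was measured in 9 IMR90 and 6 Huh7 libraries, grouped by their titles and labels. The authors deposited raw counts per gene for each library, in 1 table for each line. The submitters' processing notes name fastp, STAR, featureCounts and GRCh38. Per the file headers, the IMR90 counts were made by featureCounts 2.0.1 with GENCODE 38 and no strand option. The sources used here do not give the version or annotation behind the Huh7 counts. Reads of a gene and of a partner on the other strand cannot be told apart where they overlap.

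From these counts, CPM (counts scaled to the library's total) and RPKM (CPM per kilobase of the exon length in the table) were computed. Each line was tested on its own with edgeR 4.0.16 in R 4.3.3 (filterByExpr, TMM scaling, quasi-likelihood test), and p-values were adjusted by Benjamini-Hochberg over all genes tested and called under 0.05. The effects of set 2 and Huh7 were compared in a joint fit on the 38415 symbols that both tables share. Standard errors were taken as the log2 fold change divided by the square root of F, and 95% intervals from them by the normal approximation. The fits gave a common biological coefficient of variation of 3.13% (IMR90), 8.20% (Huh7) and 5.96% (joint). The joint value lies between those of the lines, so errors of the joint fit can be too small where Huh7 varied more. Precision at low levels is limited by counts: intervals and floors (3 counts) cover counting error or the spread of these libraries only.

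The members and the gene lists were chosen with earlier results of these data known. Genes named beside the 10 members and THBD were up to 3 per list that were called, averaged 10 CPM or more in some group and changed most, in set 2 and in Huh7, and the 3 genes most like each ligand. In a few places values of such a gene in another comparison are given. JAK1, FGB and LBP are given besides for the other direction in their lists, and CEBPB and CEBPD are named for being in more than 1 list. No block was used, because the labels do not say what a replicate number marks. Same-numbered replicates did not deviate together (correlations −0.0522 to 0.0223). Alternatives were DESeq2 1.42.0 scaling and test, upper-quartile scaling, limma 3.58.1 voom, other filters, a block for the replicate number and leave-one-out fits. Sequences are from RefSeq (GRCh38.p14); LIF and CLCF1 were not matched there. The fit was tested on simulated data, with large changes planted in well-counted genes and the same spread for all genes and groups of a fit. That test does not cover small changes, changes of genes with low counts or unequal spread between the lines. For 1 named gene no values are reported here.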

Additional observations from a re-analysis of the deposited data

Results flagged for a closer look

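For 6 of the 10 genes the effect of the shTHBD label differed between IMR90 set 2 and Huh7 by the test of the difference itself, in the joint edgeR fit with adjusted p under 0.05. On the log2 scale, set 2 minus Huh7, the difference was −3.33 for IL6, −2.83 for IL11, 1.75 for IL6R, 0.79 for LIFR, 0.39 for STAT3 and 0.18 for OSMR. IL6R and STAT3 rose in set 2 and fell in Huh7, OSMR fell in both, and for IL6, IL11 and LIFR the Huh7 change itself was not called. The joint errors of IL6 and IL11 were smaller than those of their Huh7 effects alone and are likely too small.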

How the results depend on the processing

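Over all alternatives no count of genes or of family members called moved by more than 1.5 times. Leaving out single libraries gave 7633 to 8429 genes called in set 1, 9932 to 10502 in set 2, 10346 to 10856 between the sets, 8391 to 9189 in Huh7 and 6564 to 7243 for the difference between lines. The members called were then 10 in each IMR90 comparison, 5 in Huh7 and 5 to 7 for the difference. A replicate block called 8237, 10317, 10675, 8784 and 6712 genes in the same order, and 10, 10, 10, 5 and 6 members; the labels share only numbers, and the pairing check found no shared deviation. Of 819 recomputed member fold changes 797 kept their direction and side of the threshold, 13 lost the call, 3 gained it and 6 changed sign. All 6 belong to values that were not called: the IL6ST difference between lines was 0.0104 under upper-quartile scaling and ran from −0.0975 to 0.0883 when single libraries were left out (positive without Huh7 control replicate 3, Huh7 shTHBD replicate 3 or set 2 replicate 3), IL11 in Huh7 ran from −0.496 to 0.0136 (positive without shTHBD replicate 2), and LIFR in Huh7 from −0.0149 to 0.158 (negative without shTHBD replicate 3). The cause was not tested. The 30 member calls within IMR90 held under every alternative run. Of 1873 recomputed fold changes of other named genes 28 lost the call and 1 gained it, and of 1134 list counts 33 moved by more than 1.5 times, mostly in lists of few tested genes. LIF in Huh7 gave no value under a filter of at least 10 counts in every library of a group.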

Other observations

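The place of the family among all genes of the cell shifted with the groups. Ranked by RPKM among genes with at least 1 CPM, IL6 was 150th in the IMR90 control, 295th in set 1 and 2338th in set 2. IL11 went from 84th to 75th and 1032nd, and LIF from 88th to 115th and 334th. IL6R moved up from 10102nd to 6016th and 7664th, and SOCS3 stood at 1116th, 474th and 1588th. In Huh7, where 15047 genes reached 1 CPM in the control and 15138 with shTHBD, OSMR went from 759th to 1374th, IL6R from 5063rd to 6170th and LIFR from 1383rd to 1213th.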
